A study of Mus musculus with 25 samples.

Results

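The genes described here carry the interleukin-6 (IL-6) signal from the cell surface to the nucleus, and they were chosen by name: the receptor chains Il6ra, Il6st and Osmr, the kinase Jak1, the transcription factors Stat3 and Stat5b, the feedback inhibitors Socs2 and Socs3, and the C/EBP factors Cebpb and Cebpd. Of these 10 genes, 8 had values among the 8829 gene symbols measured, and Socs3 and Osmr were not analysed here. The samples were gastrocnemius muscles of 25 male mice of the senescence-accelerated line SAMP8, an inbred line with an AKR/J background used as a model of early sarcopenia. All mice were 8 months old at the start and were gavaged on 5 days per week for 3 months, 11 mice with the corn oil vehicle (Control) and 14 with thymol, a phenol of oregano and thyme, with a daily dose of 20 mg per kg in the same oil (Thymol). Each muscle gave 1 library of the 3′ ends of its messenger RNAs, and levels are given as log2 CPM, where CPM is the read count of a gene scaled to a common library size. The labels do not say whether mice shared a litter or a cage, so that p-values measure the spread between these mice.

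IL-6 and its relatives bind a ligand-specific chain such as IL-6 receptor alpha (Il6ra) and then the shared chain gp130 (Il6st), which brings Janus kinases together to phosphorylate STAT factors. STAT3 is the main target of gp130, whereas STAT5B answers mainly to growth hormone and related hormones, and both induce SOCS proteins that damp the signal. C/EBP beta and C/EBP delta are transcription factors of the acute-phase response, and muscle both releases IL-6 in exercise and loses mass when the STAT3 and C/EBP delta branch is active for long.

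The promoter letters of 3 genes are shown because the co-variation described further on concerns them. Il6ra and Cebpd were the member pair with the highest r, and Cebpb was compared with genes of the rapid stimulus response, although neither relation passed the adjusted threshold, while Cish was the gene nearest to Socs2. The reference sequences were RefSeq windows of GRCm38.p6, which ran from 250 bases before a transcript start to 50 bases after it, and 6 of the 8 measured genes had one. The motifs searched on both strands were TTNCNNAA for C/EBP factors, TTCNNNGAA for STAT factors and TGACG, a part of the cyclic AMP response element. In the Il6ra stretch (chr3:89913197-89913446, minus strand) the capitals mark C/EBP matches 116 and 70 bases before the start, of which the former reads as a match on either strand. In the Cebpb stretch (chr2:167688665-167688914, plus strand) they mark TGACG, on the minus strand 180 bases before the start and on the plus strand 53 and 7 bases before it. In the Cish stretch (chr9:107296655-107296684, plus strand) they mark STAT matches that begin 0 and 11 bases after the start.
Il6ra: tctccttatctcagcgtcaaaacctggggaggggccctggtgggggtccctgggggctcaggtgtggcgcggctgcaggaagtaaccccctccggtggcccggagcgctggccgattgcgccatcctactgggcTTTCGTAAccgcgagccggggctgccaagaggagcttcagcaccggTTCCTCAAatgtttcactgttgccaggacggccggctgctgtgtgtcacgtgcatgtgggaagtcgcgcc
Cebpb: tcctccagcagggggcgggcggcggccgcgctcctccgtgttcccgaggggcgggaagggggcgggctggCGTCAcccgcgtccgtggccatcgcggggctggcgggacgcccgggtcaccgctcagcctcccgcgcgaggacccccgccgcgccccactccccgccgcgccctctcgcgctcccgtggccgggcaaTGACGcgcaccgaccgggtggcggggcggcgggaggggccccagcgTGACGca
Cish: agttTTCCTGGAAagTTCTTGGAAatctgt
Of 32851 windows of 300 bases across the genome, 40.7% held TTNCNNAA, 8.3% held TTCNNNGAA and 20.8% held TGACG, so that a match of the first kind is common. The Stat3 window held 2 C/EBP matches and the Jak1 window 3 of TGACG, whereas the Il6st window held none of the 3 motifs. These matches are descriptions of the letters and not binding sites.

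The libraries held between 4463818 and 9463418 reads over the measured genes, with medians of 7554333 in Control and 7479077 in Thymol. The fast fibre list checked that the tissue was fast skeletal muscle, although it cannot tell the gastrocnemius from other fast muscles. All 12 genes were measured, and their mean level lay between 13.06 and 13.50 log2 CPM in Control and between 13.01 and 13.57 in Thymol. The fast myosin gene Myh4 averaged 15 log2 CPM. Along the first 3 principal components, control mouse 18 (score 29.3 on the first), thymol mouse 20 (-24.5 on the second) and control mouse 19 (-29.8 on the third) stood apart. Results that rest on them are given with and without them where both were computed. Of 14 measured leukocyte genes out of 22 listed, the mean level ran from 3.12 to 5.30 log2 CPM in Control and from 3.22 to 4.86 in Thymol, while the defining genes Ptprc, Adgre1 and Itgam were not analysed here. The highest leukocyte mean was that of control mouse 18. In bulk tissue, fewer cells of a type and less RNA per cell cannot be told apart.

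No member of the pathway differed between the groups by the test used, limma on all genes with Benjamini-Hochberg adjustment. At an adjusted p under 0.05, 0 of 8829 genes (0%) and 0 of the 8 members passed, and voom on the recovered reads also called 0 genes. At an unadjusted p under 0.05, 312 genes passed (3.53%), of which 162 were higher and 150 lower in Thymol, and again 0 of the 8 members did, although Cebpb lay next to the threshold. The adjusted p of every member was 0.9999.

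Il6ra (chr3:89864059-89913196, minus strand, GRCm38) encodes the chain that binds IL-6 itself. Its level in Control ran from 2.40 in mouse 27 through a median of 3.45 to 4.51 log2 CPM in mouse 18. In Thymol it ran from 2.78 in mouse 34 through 3.47 to 4.28 in mouse 3. The groups thus overlapped almost completely, and the Control median exceeded 7 of the 14 Thymol values. The means were 3.51 ± 0.63 (SD, n = 11) and 3.51 ± 0.43 (SD, n = 14), and the log2 fold change was 0.00022 with a standard error of 0.195 (limma p = 0.999). The 95% interval from -0.40 to 0.40 bounds a change in the mean that could still have gone unseen at this spread.

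Il6st (chr13:112464070-112510086, plus strand) encodes gp130, the chain shared by IL-6, leukaemia inhibitory factor, oncostatin M and their relatives. Control mice ran from 6.04 (mouse 15) through a median of 6.19 to 6.49 log2 CPM (mouse 18). Thymol mice ran from 5.87 (mouse 3) through 6.27 to 6.51 (mouse 28). The lowest and the highest muscle were both Thymol muscles, so that the Control range lay inside the Thymol range. The log2 fold change was 0.00099 with a standard error of 0.0639 and a 95% interval from -0.13 to 0.13 (limma p = 0.988), which is a narrower bound than that for Il6ra.

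Jak1 (chr4:101152367-101265282, minus strand) encodes the kinase that gp130 uses most, and it was the most abundant member. Its Control levels ran from 7.44 (mouse 14) through 7.65 to 7.81 log2 CPM (mouse 10), and its Thymol levels from 7.34 (mouse 26) through 7.60 to 7.97 (mouse 34). Again the Control range lay inside the Thymol range. The log2 fold change was -0.0018 with a standard error of 0.0607 and an interval from -0.13 to 0.12 (limma p = 0.977).

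Stat3 (chr11:100885098-100939540, minus strand) encodes the main transcription factor downstream of gp130. In Control it ran from 5.75 (mouse 31) through 6.17 to 6.30 log2 CPM (mouse 32), and in Thymol from 5.55 (mouse 3) through 6.07 to 6.40 (mouse 6). Although 12 of the 14 Thymol values were under the median of Control, the groups overlapped over most of their range, and the log2 fold change of -0.06 with a standard error of 0.0798 was smaller than the spread between mice (limma p = 0.432, interval -0.23 to 0.10). The 3′ end of Stat3 overlaps that of the opposite-strand gene Stat5a by 72 bases. The strand setting of the authors' counting is not given in the sources used here, so reads from those bases cannot be assigned with certainty, and Stat5a itself was low at a mean of 2.60 log2 CPM.

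Stat5b (chr11:100780731-100850724, minus strand) encodes the STAT factor that growth hormone activates in muscle. Its level ran from 5.85 (mouse 18) through 6.51 to 6.78 log2 CPM (mouse 1) in Control and from 5.89 (mouse 11) through 6.48 to 6.86 (mouse 26) in Thymol. The 2 groups covered nearly the same range. The log2 fold change was -0.04 with a standard error of 0.112 and an interval from -0.27 to 0.19 (limma p = 0.741).

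Socs2 (chr10:95385362-95417180, minus strand) encodes a suppressor of cytokine signalling that restrains growth hormone receptor signalling. Control mice ran from 3.40 (mouse 19) through a median of 5.34 to 5.84 log2 CPM (mouse 27). Thymol mice ran from 4.08 (mouse 21) through 4.81 to 6.19 (mouse 6). Control mouse 19 lay below every Thymol mouse, whereas the Control median exceeded 11 of the 14 Thymol values. The log2 fold change was -0.07 with a standard error of 0.241 and an interval from -0.56 to 0.42 (limma p = 0.780). It was -0.22 without control mouse 19 and 0.018 without control mouse 27, so that its size and its sign depended on single mice. Of the 31-base words in the last 500 transcript bases of Socs2, 32.1% also occur in Gm8000 or Gm9847, and its counts are uncertain to that extent.

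Cebpb (chr2:167688915-167690418, plus strand) encodes C/EBP beta and had the smallest p of the members. In Control it ran from 4.41 (mouse 10) through a median of 5.10 to 5.83 log2 CPM (mouse 14). In Thymol it ran from 4.47 (mouse 21) through 4.79 to 5.49 (mouse 30). The ranges overlapped over most of their length, with 10 of the 14 Thymol values under the median of Control and the highest Control muscles above every Thymol muscle. The means were 5.17 ± 0.44 (SD, n = 11) and 4.87 ± 0.36 (SD, n = 14), which is a log2 fold change of -0.30 with a standard error of 0.147, or a ratio of 0.813 (limma p = 0.0511, adjusted p = 0.9999, interval -0.60 to 0.0015). This value sits on the edge of the unadjusted threshold: leaving out 1 mouse at a time gave p under 0.05 in 8 of 25 fits, with 0.117 without control mouse 14 and 0.0127 without control mouse 10. The immediate-early list, genes switched on within minutes of a stimulus, had 2 of its 20 measured genes higher and 18 lower, beside 4375 higher and 4454 lower over all genes. Its median log2 fold change was -0.23, with mean levels from 4.0 to 4.93 log2 CPM in Control and from 3.74 to 4.60 in Thymol. A shift of the list as a whole was not tested. The AP-1 gene Jund, at -0.34 with a standard error of 0.106 (limma p = 0.00326, adjusted p = 0.9999), and the stress phosphatase subunit Ppp1r15a, at -0.40 with a standard error of 0.144 (limma p = 0.00906), passed at an unadjusted p under 0.05. Over all genes, 3.53% passed at that threshold. The part of these list genes in the Cebpb difference was not tested.

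Cebpd (chr16:15887286-15891031, plus strand) encodes C/EBP delta, and its 3′ end lies within the opposite-strand gene Spidr, with 1808 bases shared. As for Stat3, the strand setting of the counting is not given, so reads from those bases cannot be assigned with certainty. Spidr itself was not analysed here. Control mice ran from 2.41 (mouse 15) through 3.67 to 5.44 log2 CPM (mouse 19), with 4.53 in mouse 18 as the next highest. Thymol mice ran from 2.91 (mouse 16) through 3.37 to 4.34 (mouse 21). All 14 Thymol levels lay inside the Control range, and 10 of them were under its median. The log2 fold change was -0.15 with a standard error of 0.245 and an interval from -0.65 to 0.35 (limma p = 0.534). The sign came from 1 muscle, since the log2 fold change was 0.022 without control mouse 19 and 0.14 without control mice 18 and 19 and thymol mouse 20.

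**Figure D1:**
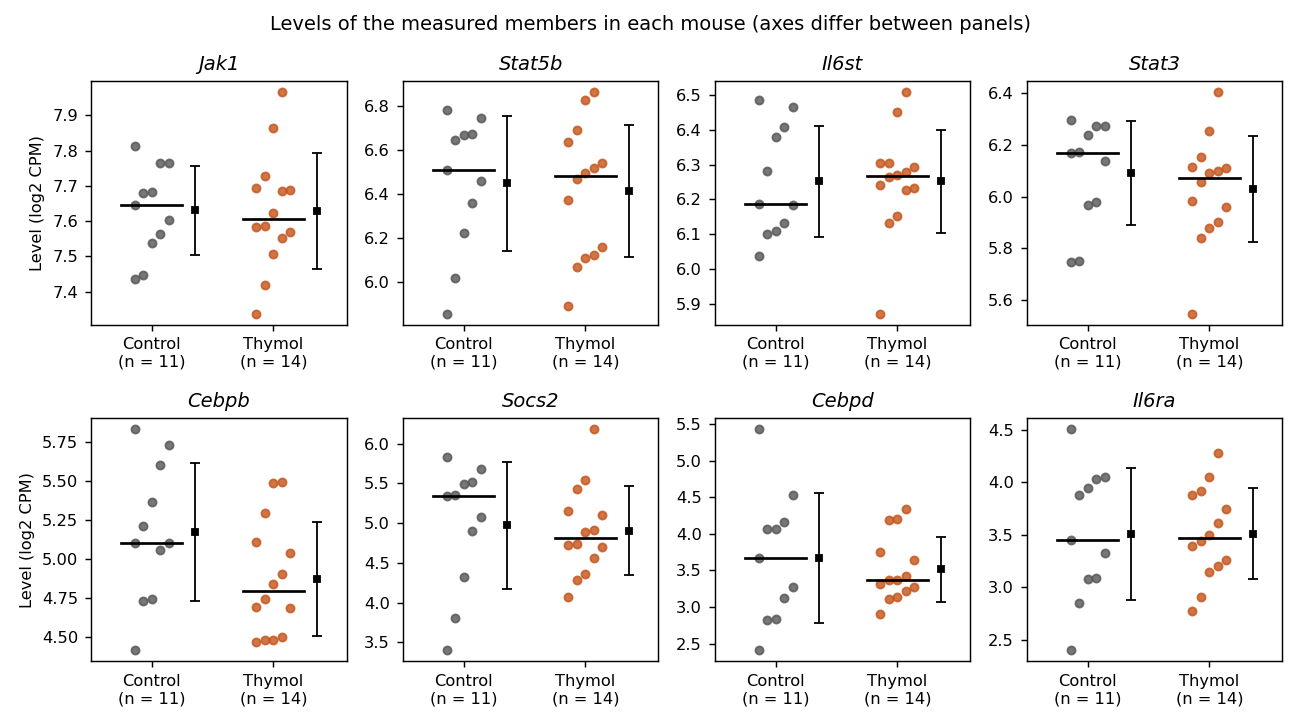
Level of each of the 8 measured genes in log2 CPM, 1 panel per gene, with 1 point per mouse, a line at the group median and a square with a bar for the mean ± SD of 11 Control and 14 Thymol mice. The groups overlap in every panel, and control mouse 19 is the highest point for Cebpd (5.44) and the lowest for Socs2 (3.40).

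**Figure D2:**
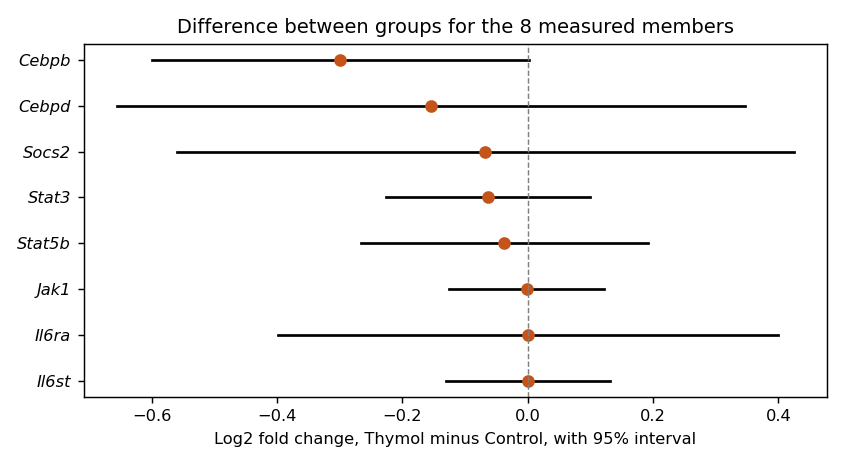
Log2 fold change of Thymol against Control for the 8 measured genes, with points for the limma estimate and bars for its 95% interval. Every interval includes 0, and that of Cebpb reaches only to 0.0015.

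The other genes of the pathway gave the same picture, with 57 of 92 listed genes measured in 7 lists, 22 higher and 35 lower in Thymol, 0 called at either threshold, and a median log2 fold change of -0.03 beside -0.0014 over all genes. Of 12 ligand genes of the family, 1 was measured, cardiotrophin 1 (Ctf1), at a mean of 2.49 log2 CPM and a log2 fold change of 0.12 (limma p = 0.527, adjusted p = 0.9999). IL-6 itself, oncostatin M and leukaemia inhibitory factor were not analysed here. Of 18 other receptor and sheddase genes, 12 were measured, 4 of them higher and 8 lower, with a median of -0.02. The growth hormone receptor Ghr had the highest level of these, at 6.87 log2 CPM, and a log2 fold change of -0.01. The smallest p values in that list were those of the interleukin-4 receptor Il4ra (-0.23, standard error 0.132, limma p = 0.0934) and the interleukin-11 receptor Il11ra1 (0.24, standard error 0.160, limma p = 0.151), which lay in opposite directions.

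Among the other Janus kinases and STATs, 5 of 8 genes were measured, 3 higher and 2 lower. The kinase of the growth hormone receptor, Jak2, was at a log2 fold change of 0.18 (limma p = 0.175) and Stat5a at 0.20 (limma p = 0.224). Of 15 inhibitors, 12 were measured, 4 higher and 8 lower, with a median of -0.03. The SOCS family gene Cish had the largest absolute log2 fold change named from these lists, -0.59, but its standard error was 0.410 (limma p = 0.160). Its levels ran from 3.29 (mouse 19) through 5.58 to 6.69 log2 CPM (mouse 27) in Control and from 3.07 (mouse 30) through 4.38 to 7.56 (mouse 6) in Thymol, a spread wider than the group difference.

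Of the C/EBP relatives and partners, 5 of 6 were measured, 1 higher and 4 lower, with a median of -0.09. The stress factor Atf4, the most abundant of them at 8.20 log2 CPM, was at -0.09 (limma p = 0.157), and Cebpg at -0.11 (limma p = 0.145). Of 28 known targets of STAT3 and C/EBP factors, 20 were measured, 8 higher and 12 lower, with a median of -0.02. The muscle atrophy ubiquitin ligase Fbxo32 had the highest level of these at 8.57 log2 CPM and a log2 fold change of 0.09 (limma p = 0.379), whereas the interleukin-1 receptor Il1r1 was at 0.34 with a standard error of 0.171 (limma p = 0.0599) and the kinase Pim1 at 0.22 (limma p = 0.172). Of 8 STAT5 targets, 5 were measured, 2 higher and 3 lower, with the growth factor Igf1 at 0.12 (limma p = 0.470) and the cell cycle inhibitor Cdkn2c at -0.16 (limma p = 0.214). The median of these 5 was -0.15, the largest shift of the 7 lists, and no gene of it was called.

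The members differed widely in level. The library holds 1 fragment per transcript end, so levels of different genes can be set side by side without a correction for length. Jak1 was highest at a mean of 7.63 log2 CPM (199 CPM as a linear mean), and it exceeded Stat5b, the next at 6.43, in 25 of 25 mice. Stat5b, Il6st (6.25) and Stat3 (6.06) lay close together: Stat5b was above Il6st by 0.18 ± 0.36 (SD of the differences) and in 18 of 25 mice, and Il6st above Stat3 by 0.20 ± 0.21 and in 20 of 25. Both mean differences were smaller than the SD of the differences between mice, although most mice kept the order. Stat3 exceeded Cebpb (5.0) in 25 of 25 mice by 1.05 on average. Cebpb and Socs2 (4.94) could not be ordered, since they differed by 0.07 ± 0.76 and in only 10 of 25 mice in the direction of their means. Cebpd (3.59) and Il6ra (3.51) were lowest and likewise changed places, with Cebpd higher in 15 of 25 mice by 0.08 ± 0.53, so the ligand-specific receptor chain was present at 12.1 CPM beside 76.6 CPM of the shared chain (linear means).

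They also differed in how far mice lay apart. Cebpd varied 8.17-fold between its lowest and highest muscle and Socs2 6.91-fold, whereas Il6st and Jak1 each varied 1.55-fold. The SD between mice within groups was 0.675 for Cebpd, 0.673 for Socs2, 0.528 for Il6ra and 0.40 for Cebpb, compared with 0.153 for Il6st and 0.149 for Jak1. Counting error was a small part of this, because the SD that read counting alone would give was 0.164 for Cebpd (30 to 331 reads per library) and 0.101 for Socs2 (79 to 563 reads). Ranked among the 500 genes nearest in level, the SD of Cebpd stood at percentile 99.0, that of Socs2 at 98.6, Il6ra at 94.6, Cebpb at 94.4 and Stat5b at 92.8. Stat3 stood at 70.4, Jak1 at 42.8 and Il6st at 38.6. The shared chain Il6st and the kinase Jak1 were thus ordinary for their level. The C/EBP factors, Socs2, the receptor chain Il6ra and Stat5b were among the more variable genes of their levels. Without control mouse 19, the SD was 0.566 for Cebpd and 0.591 for Socs2, still above the other members.

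**Figure D3:**
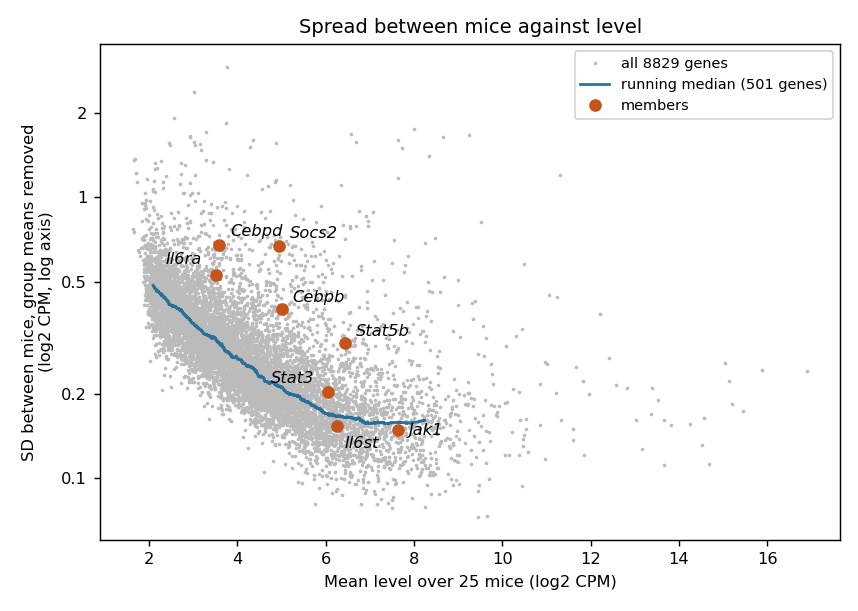
SD between mice within groups (log axis, log2 CPM units) against mean level (log2 CPM) for 8829 genes as grey points, with a line for the running median over 501 genes and the 8 members labelled. Cebpd (SD 0.675), Socs2 (0.673), Il6ra and Cebpb lie far above the line, and Jak1 and Il6st lie close to it.

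Whether the members moved together from mouse to mouse was asked on deviations from the group means, so that a treatment difference could not produce a correlation. For each member, every other gene was tested in a limma model with group and the member's level as terms, and a pair of members counted as called when the adjusted p was under 0.05 in both fits. Of 28 pairs, 0 were called, and no member was among the genes called for another member. Pearson's r ran from -0.41 to 0.63 with 12 positive and 16 negative pairs and a median absolute r of 0.167, so the 8 genes did not rise and fall as a block. The background of these fits is the share of 8828 genes called: 0.521% for Il6st, 0.0566% for Il6ra, 0% for Stat3, 0.113% for Stat5b, 0% for Jak1, 0.0227% for Socs2, 0% for Cebpb and 0.272% for Cebpd. At an unadjusted p under 0.05 the shares were 13.6% for Il6st, 12.2% for Il6ra, 7.43% for Stat3 (656 genes), 11.2% for Stat5b, 7.24% for Jak1 (639 genes), 8.09% for Socs2, 7.26% for Cebpb (641 genes) and 11.1% for Cebpd. Several calls below were lost when the first number of the sample label, whose meaning the sources used here do not give, was added as a block, and those values stand beside them.

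The pair that came closest was Il6ra and Cebpd, with r = 0.63 and rho = 0.67 (25 mice, permutation p = 0.00233 and 0.001, adjusted p = 0.0762 and 0.0661 in the limma fits). Cebpd ranked the 56th among all genes for Il6ra by absolute r, and Il6ra the 63rd for Cebpd. Within Control r was 0.84 (permutation p = 0.00147, n = 11) and within Thymol 0.20 (permutation p = 0.492, n = 14), and the difference between the groups was not tested. The relation persisted without the 2 mice farthest from the median of Il6ra (r = 0.55, permutation p = 0.0071) and without the 3 libraries that stood apart (r = 0.56, permutation p = 0.0121). The adjusted p was 0.0366 and 0.0487 in the 2 fits with the immediate-early mean as a covariate, and 0.0170 and 0.0149 without thymol mouse 22, so that the pair lay at the threshold.

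The next 4 pairs by absolute r were weaker. Il6ra and Stat5b were opposed, with r = -0.41 and rho = -0.36 (permutation p = 0.0476 and 0.0829). Within Control the relation kept its direction and a permutation p under 0.05, whereas within Thymol r was -0.087, a difference that was not tested. Without the 2 farthest mice r was -0.25 (permutation p = 0.251). Leaving out 1 mouse at a time gave r from -0.50 to -0.28, with a permutation p under 0.05 in 10 of 25 fits, so that the relation depended on which mice were kept. Stat5b and Socs2 were opposed as well, with r = -0.41 and rho = -0.48 (permutation p = 0.0498 and 0.018), -0.54 within Control and -0.27 within Thymol. Il6st and Cebpd had r = 0.39 and rho = 0.41 (permutation p = 0.0669 and 0.0578), yet 0.75 within Control and -0.16 within Thymol. Il6st and Cebpb had r = -0.38 and rho = -0.29 (permutation p = 0.069 and 0.184), -0.33 within Control and -0.44 within Thymol. In all, 19 relations of members with each other, with their nearest genes and with list means were given a permutation p, and these p values are unadjusted.

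**Figure D4:**
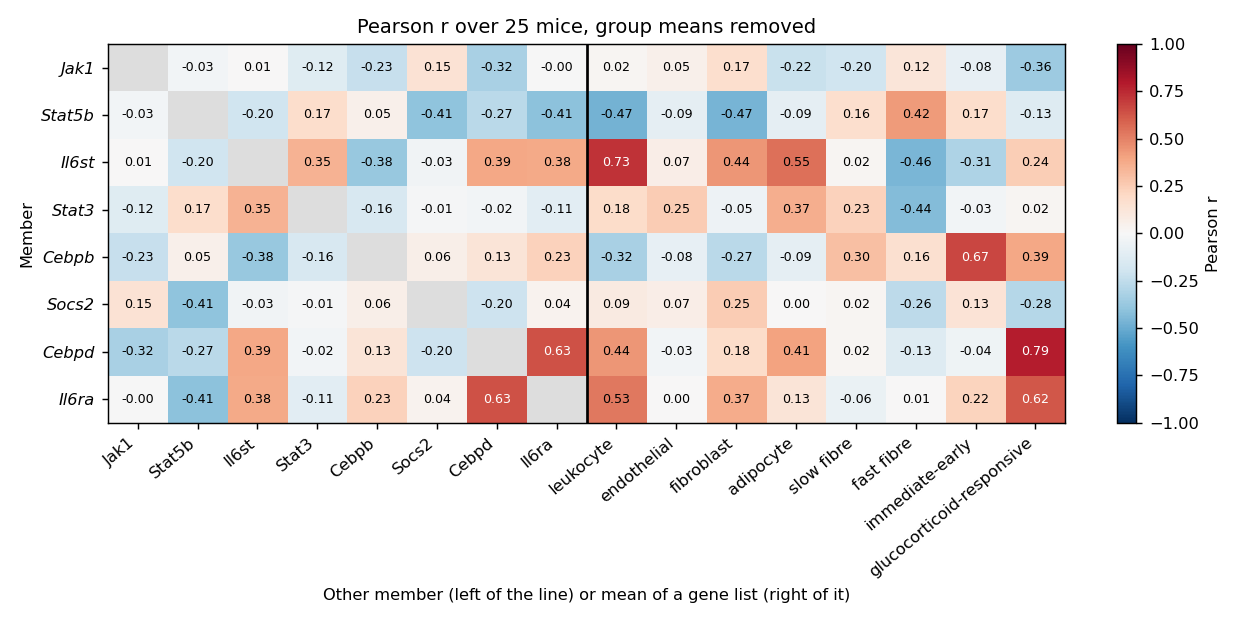
Pearson's r between the 8 members, and between each member and the mean level of 8 gene lists, over 25 mice on deviations from group means, with the colour scale from negative to positive r. The highest cells are Cebpd with the glucocorticoid-responsive mean (0.79), Il6st with the leukocyte mean (0.73), Cebpb with the immediate-early mean (0.67) and Il6ra with Cebpd (0.63).

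Several members had close partners outside the family. The gene nearest to Socs2 was Cish, another SOCS gene induced by STAT5, with r = 0.82 and rho = 0.83 (limma adjusted p = 0.000258), and r was 0.81 within Control and 0.84 within Thymol. Muscles with 1 log2 unit more Socs2 had 1.40 log2 units more Cish. Control mouse 19 was the lowest Control mouse for both, control mouse 27 the highest Control mouse for both, and thymol mouse 6 the highest Thymol mouse for both. Without the 2 mice farthest from the median of Socs2 r was 0.71, without the 3 libraries that stood apart it was 0.78, and leaving out each mouse in turn gave r from 0.775 to 0.887. With the first label number as a block, the adjusted p was 0.236 and the call was lost. That block left 8 residual degrees of freedom in the model with group alone, and fewer once the level of a member was added. The only other gene called for Socs2 was the growth factor Egf, at r = -0.73 (adjusted p = 0.0464), a gene noted after its value was seen. The next nearest genes, 2310033P09Rik (r = 0.72) and the homeobox gene Irx3 (r = 0.70), were not called. The growth hormone receptor gene Ghr and Stat5b were not among the genes called for Socs2.

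Cebpd had 24 called genes, 22 of them with positive r. The nearest were the sulfotransferase Sult1a1 with r = 0.83 (adjusted p = 0.000283), the NF-kappaB inhibitor Nfkbia with r = 0.83 (adjusted p = 0.000283) and the arrestin-domain gene Arrdc2 with r = 0.78 (adjusted p = 0.00142). For Sult1a1 r was 0.87 within Control and 0.68 within Thymol, and for Nfkbia 0.94 and 0.47. With the label block their adjusted p was 0.0585 and 0.0928, and 2 genes were called for Cebpd. The list of genes that glucocorticoids induce in muscle had 14 of 15 genes measured, and its mean level followed Cebpd with r = 0.79 and rho = 0.71 (limma adjusted p = 0.000477). Cebpd was the only member called for that mean, beside 0.362% of all genes. Of the 14 genes, 12 had an unadjusted p under 0.05 with positive r, beside 6.35% of all genes, and 3 were called, namely the clock gene Per1 (r = 0.76), the mTOR inhibitor Ddit4 (r = 0.77) and the atrophy factor Foxo1 (r = 0.67).

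That relation leaned on control mouse 19, which had both the highest Cebpd level and the highest glucocorticoid-responsive mean (6.64 log2 CPM, with 5.59 in control mouse 18 next and a median of 5.11). Without it r was 0.67 and the adjusted p 0.0623, and without the 3 libraries that stood apart r was 0.60 and the adjusted p 0.205. With the label block the adjusted p was 0.0621. Within Control r was 0.92 and within Thymol 0.26 (permutation p = 4e-05 and 0.362), a difference that was not tested. Between the groups, 2 genes of the list were higher and 12 lower in Thymol, beside 4375 higher and 4454 lower over all genes, with a median log2 fold change of -0.15. Of these genes, 0 passed at an unadjusted limma p under 0.05. These values include control mouse 19, whose list mean of 6.64 was the highest, and they were not computed without it. A shift of the list as a whole was not tested. The range of the list mean was 4.78 to 6.64 log2 CPM in Control and 4.79 to 5.40 in Thymol. Counts of called genes moved with the same mouse, since 2 genes were called for Cebpd without control mouse 19 and 0 without the 3 libraries. Il6ra and the same list mean had r = 0.62 and rho = 0.70, 0.67 within Control and 0.59 within Thymol, but it was not called (adjusted p = 0.0723).

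Il6st had 46 called genes, 43 of them with positive r. The nearest were the chromatin remodeller Smarca2 (r = 0.79, adjusted p = 0.00814), the receptor-like gene Ildr2 (r = 0.78) and the leukocyte membrane gene Laptm5 (r = 0.78, adjusted p = 0.00672). Of the 14 measured leukocyte genes, all 14 had an unadjusted p under 0.05 with positive r, beside 8.27% of all genes, and 7 were called: Laptm5, Lyz2, Fcer1g, C1qa, C1qc, H2-Aa and H2-Ab1. The mast cell protease genes Tpsb2 (r = 0.74) and Cpa3 (r = 0.73) were called too, a pair noted after their values were seen. Of the 20 measured genes of the STAT3 and C/EBP target list, only the complement gene C3 and the secreted gene Fgl2 were called. Over all genes, 0.521% were called for Il6st.

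The leukocyte mean itself followed Il6st with r = 0.73 and rho = 0.76 (limma adjusted p = 0.0112), 0.87 within Control and 0.58 within Thymol. Il6st was the only member called for that mean, beside 3.81% of all genes. Without control mouse 18, the mouse with the highest leukocyte mean, r was 0.69 and the adjusted p 0.0578, and the genes called for Il6st numbered 6. Without the 3 libraries that stood apart r was 0.76. With the label block the adjusted p was 0.275, and 0 genes were called for Il6st. The other members lay on either side: r with the leukocyte mean was 0.53 for Il6ra (adjusted p = 0.0738) and -0.47 for Stat5b (adjusted p = 0.137). With the fibroblast mean, r was likewise -0.47 for Stat5b (limma adjusted p = 0.153). For Il6st, r was 0.55 with the adipocyte mean, 0.44 with the fibroblast mean and -0.46 with the fast fibre mean. It was 0.07 with the endothelial and 0.02 with the slow fibre mean, and none of these relations was called. Holding the leukocyte mean constant brought the r of Il6st with Cebpd to 0.11, that of Il6ra with Stat5b to -0.22 and that of Il6ra with Cebpd to 0.53.

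For Cebpb 0 genes were called, and the nearest were the differentiation regulator Ifrd1 (r = 0.73, adjusted p = 0.124), the kinase gene Pskh1 (r = 0.71) and the amino acid transporter Slc38a2 (r = 0.70). The immediate-early mean and Cebpb had r = 0.67 and rho = 0.58 (permutation p = 0.00037), 0.61 within Control and 0.73 within Thymol, but the adjusted p was 0.106, and 0.0453% of all genes were called for that mean. Of its 20 genes, 9 had an unadjusted p under 0.05 with positive r, beside 3.9% of all genes. The highest immediate-early mean was that of control mouse 14, which also had the most Cebpb, and the next was that of thymol mouse 6, whose Cebpb was within 0.01 log2 units of the highest Thymol value.

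Il6ra had 5 called genes, all with positive r: the 14-3-3 gene Ywhaq (r = 0.78), the carbonyl reductase Cbr1 (r = 0.77), the mRNA decay factor Zfp36 (r = 0.75), the selenium carrier Selenop (r = 0.69) and the metallothionein Mt1 (r = 0.69), with adjusted p from 0.0386 to 0.0462. These calls were fragile: 0 to 2 genes were called under each of 7 other settings and 0 to 96 when 1 mouse was left out, and the adjusted p of Ywhaq was 0.230 with the label block and 0.355 without the 3 libraries that stood apart. Zfp36 was also called for Cebpd (r = 0.73, adjusted p = 0.0179), which places 1 gene beside both members of the closest pair. Stat5b had 10 called genes, 8 of them with positive r, led by the potassium channel Kcnq5 (r = 0.76, adjusted p = 0.0113), the sarcomere-associated gene Cmya5 (r = 0.76) and the protease gene Ddi2 (r = 0.75), with the neuropeptide gene Nmb opposed (r = -0.78). The muscle-enriched AMP kinase subunit Prkag3 and the glycolytic regulator Pfkfb3 were among them, and 0 genes were called for Stat5b with the label block. Stat3 and Jak1 had no called gene. Among their nearest were the chaperone Mesd (r = 0.73) and Nap1l1 (r = 0.71) with 1810030O07Rik (r = 0.69) for Stat3, and Mast4 (r = 0.66) and Dcun1d3 (r = 0.64) for Jak1, with adjusted p from 0.224 to 0.327.

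No member was called for the means of the other cell type lists, for which the share of all genes called was 0.0227% for endothelial, 3.74% for fibroblast, 0.759% for adipocyte, 1.14% for slow fibre and 0.034% for fast fibre genes. These lists ranged widely between mice without a group difference called: the fibroblast mean lay between 5.59 and 7.66 log2 CPM in Control and between 5.86 and 7.23 in Thymol, and the slow fibre mean between 6.69 and 9.46 and between 3.59 and 9.75. The satellite cell list had 2 of 6 genes measured, Myod1 and Cdh15, too few to follow that cell type.

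**Figure D5:**
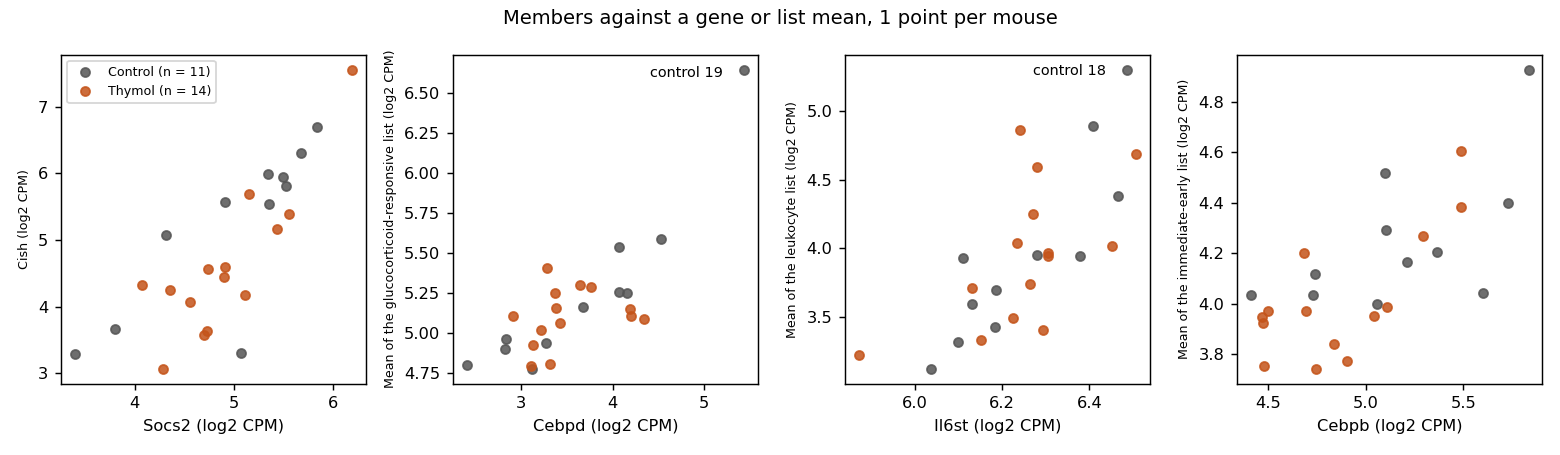
Level of 4 members in log2 CPM against a partner over 25 mice, with 1 point per mouse coloured by group: Socs2 with Cish, Cebpd with the glucocorticoid-responsive mean, Il6st with the leukocyte mean and Cebpb with the immediate-early mean, all in log2 CPM. Control mouse 19 lies alone at the upper end of the Cebpd panel (5.44 and 6.64) and control mouse 18 at the upper end of the leukocyte range (5.30), while the Socs2 points spread along the whole line.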

How the data were processed

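RNA from gastrocnemius muscle was made into QuantSeq 3′ FWD libraries, which were amplified by PCR and carried no molecular identifiers used here, so intervals from read counts cover counting error only. Per the submitters' processing notes and the methods, the authors used STAR 2.5.3 for alignment to GRCm38 and HTSeq 0.6.1 for counting, kept genes with 30 reads in at least 6 samples and normalised with TMM. The deposited values are log2 CPM per gene and mouse. Whole reads were recovered from 100% of the values (tolerance 0.02 reads), and every column was mapped to a mouse.

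Thymol was compared with Control by limma 3.58.1 with a mean-variance trend (R 4.3.3, statmod 1.5.0) on the log2 values without covariates, because the deposited unit is not counts, with 2-sided p values adjusted by Benjamini-Hochberg across the 8829 genes. voom on the recovered reads was the count-based alternative. Co-variation used the same model with group and a member's level as terms, and r was taken on deviations from group means with 100000 permutations within group (the smallest p they can give is 1e-05). The limma steps were tested on simulated data. Python used numpy 2.4.6, pandas 2.3.3, scipy 1.17.1 and matplotlib 3.10.9. Gene positions came from GENCODE for GRCm38 and promoter windows from RefSeq for GRCm38.p6.

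The genes and lists were chosen with earlier results of these data known. Named genes were all members, from each list the gene with the highest mean and the 2 with the smallest p, for each member the 3 genes of highest r, and the 5 member pairs of highest absolute r. For Jak1, 1 gene named by this rule is not reported here. Lists were summarised by counts and medians. Alternatives were quantile normalisation, median centring, keeping the 75% of genes with the highest mean, voom, covariates, Spearman's rho, leaving out each mouse, and leaving out 3 mice together. The alternatives for co-variation counts and list means were chosen after seeing the data.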

Additional observations from a re-analysis of the deposited data

How the results depend on the processing

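The count of genes called between the groups was 0 under every alternative run. Of 506 values under the alternatives that kept all or a named set of mice, 433 were classed as unchanged. For a tested value this means the same direction and side of the threshold, and for a count of calls a count near the main one. The last number of the sample label names 1 mouse each, and the groups share 0 of these. The first number takes 16 values, of which 7 hold mice of both groups, and its meaning is not given in the sources used here. As a block it left 8 residual degrees of freedom in the model with group alone, and fewer with a member's level or a list mean added. It gave 0 genes for Il6st, 1 for Il6ra, 0 for Stat5b, 1 for Socs2 and 2 for Cebpd. It gave 0 members for the leukocyte mean (adjusted p = 0.275 for Il6st) and 0 for the glucocorticoid-responsive mean (adjusted p = 0.0621 for Cebpd). The adjusted p was 0.236 for Cish with Socs2 and 0.0585 for Sult1a1 with Cebpd. Depth limited Il6ra most, at 22 to 162 reads per library. The causes were not tested.

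With voom, 1 member passed at an unadjusted p under 0.05, Cebpb (-0.31, p = 0.0466), and Il6ra turned to -0.035. Il6ra was -0.0018 with library number as a covariate, Jak1 0.010 with quantile normalisation and 0.0011 with median centring, and Cebpd 0.14 without the 3 libraries. With the immediate-early mean as a covariate 1 pair was called, Il6ra with Cebpd. Correlations that changed side were Il6ra with Cebpd (0.20 within Thymol), Il6ra with Stat5b (Spearman -0.36, within Thymol -0.087, without the 2 farthest mice -0.25, quantile -0.38, leukocyte covariate -0.22, without the 3 libraries -0.38), Stat5b with Socs2 (within Control -0.54, within Thymol -0.27, without the 2 farthest -0.41, quantile and median centring -0.39 each, without the 3 libraries -0.33), Il6st with Cebpd (within Control 0.75, within Thymol -0.16, without the 2 farthest 0.57) and Il6st with Cebpb (quantile -0.43, without the 3 libraries -0.47).

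Genes called for Il6st numbered 15 with median centring, 141 with library number and 6 without the 3 libraries. For Il6ra they numbered 0 with quantile normalisation, median centring and without the 3 libraries, and 2 with the filter, voom and library number. For Stat5b they numbered 2 with quantile normalisation, 22 with median centring and 2 without the 3 libraries. For Socs2 they numbered 1 with library number and without the 3 libraries, and for Cebpd 0 without the 3 libraries, where 0 members were called for the glucocorticoid-responsive mean.

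Leaving out each mouse gave 287 to 348 genes and 0 to 1 members at an unadjusted p under 0.05, with log2 fold changes of -0.021 to 0.030 for Il6st, -0.11 to 0.10 for Il6ra, -0.098 to -0.027 for Stat3, -0.097 to 0.0027 for Stat5b, -0.028 to 0.021 for Jak1, -0.22 to 0.018 for Socs2, -0.37 to -0.23 for Cebpb and -0.28 to 0.022 for Cebpd. It gave 0 to 1 called pairs (Il6ra with Cebpd without thymol mouse 22) and r of 0.592 to 0.726 for Il6ra with Cebpd, -0.50 to -0.28 for Il6ra with Stat5b, -0.47 to -0.35 for Stat5b with Socs2, 0.30 to 0.49 for Il6st with Cebpd and -0.49 to -0.29 for Il6st with Cebpb. Genes called ran from 6 (without control mouse 18) to 82 (without thymol mouse 9) for Il6st, 0 to 96 (without thymol mouse 3) for Il6ra, 0 to 17 for Stat5b, 0 to 2 for Jak1, 1 to 6 for Socs2, 0 to 1 for Cebpb and 2 (without control mouse 19) to 46 (without thymol mouse 28) for Cebpd. Members called ran from 0 (without control mouse 18) to 2 for the leukocyte mean and 0 to 1 for the immediate-early mean.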
